A study of Homo sapiens with 4 samples.

Results

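The genes described here are 10 genes of the tight junction: the claudins CLDN1, CLDN2, CLDN3, CLDN4, CLDN6, CLDN7, CLDN12 and CLDN15, the membrane protein occludin (OCLN) and the scaffold ZO-1 (TJP1). They were taken by gene name from the array's annotation, with every probe of each gene, and make up 10 of 43317 gene names. Expression was measured on Agilent 1-colour arrays in HCT116, a colorectal cancer line, and A549, a lung cancer line, each transfected, using the reagent Dharmafect1, with a microRNA (miR-891b) or the negative control NC1. Each of these 4 groups was 1 array of 100 ng total RNA from wild-type cells, so no change within a line has a replicate check. Both arrays of a line shared a slide and a scan date, and the labels give a different medium for each line (McCoy's 5A for HCT116, DMEM for A549). Line, slide, scan date and medium therefore cannot be told apart. The time between transfection and harvest is not given in the sources used here.

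Tight junctions seal the space between neighbouring epithelial cells near their apical border. Claudins are small 4-pass membrane proteins whose outer loops meet those of the neighbouring cell: some tighten the seal, others form pores for ions and water, and the mixture a cell makes sets how leaky its sheet is. Occludin belongs to another family of membrane proteins, and ZO-1 binds the inner ends of claudins and occludin and ties them to actin.

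miR-891b acts through its seed, bases 2 to 8, which pairs with matching sites in target transcripts. The mature sequence, from RefSeq (GRCh38.p14, chrX:146001100-146001121, minus strand), is shown with the seed in capitals because the site searched for in the probes below is its complement:
hsa-miR-891b: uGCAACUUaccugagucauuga
The site that pairs with the seed, AAGTTGC, was found in 0 of the 13 probes of these genes, and the shorter pairing followed by an A, AGTTGCA, also in 0. In all 58201 gene probes the shares were 0.393% and 0.364%. A probe samples 60 bases of a transcript, so the search says nothing about the rest of it.

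Levels are given as the processed signal of the spot, in intensity units, and as log2 of that signal relative to the 75th percentile of the array's gene probes, which stood at a signal of 54.9 (NC1) and 57.0 (miR-891b) for HCT116 and 74.8 and 74.2 for A549. Where 4 values are given in a row below, they keep this order. Between 44.7% and 50.3% of probes were well above background, the mark the scanner software sets. A value after ± on a signal is that software's own error for the spot, which leaves out differences between cultures, labelling reactions and arrays. Of the 10 genes, 8 were well above background on all 4 arrays, CLDN1 was so on the A549 arrays only, and CLDN6, a claudin best known from embryonic epithelium, on none, with signals from 3.59 to 5.17. No probe of these genes carried an outlier mark. Levels of different genes come from different probes and cannot be ranked against each other.

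**Figure D1:**
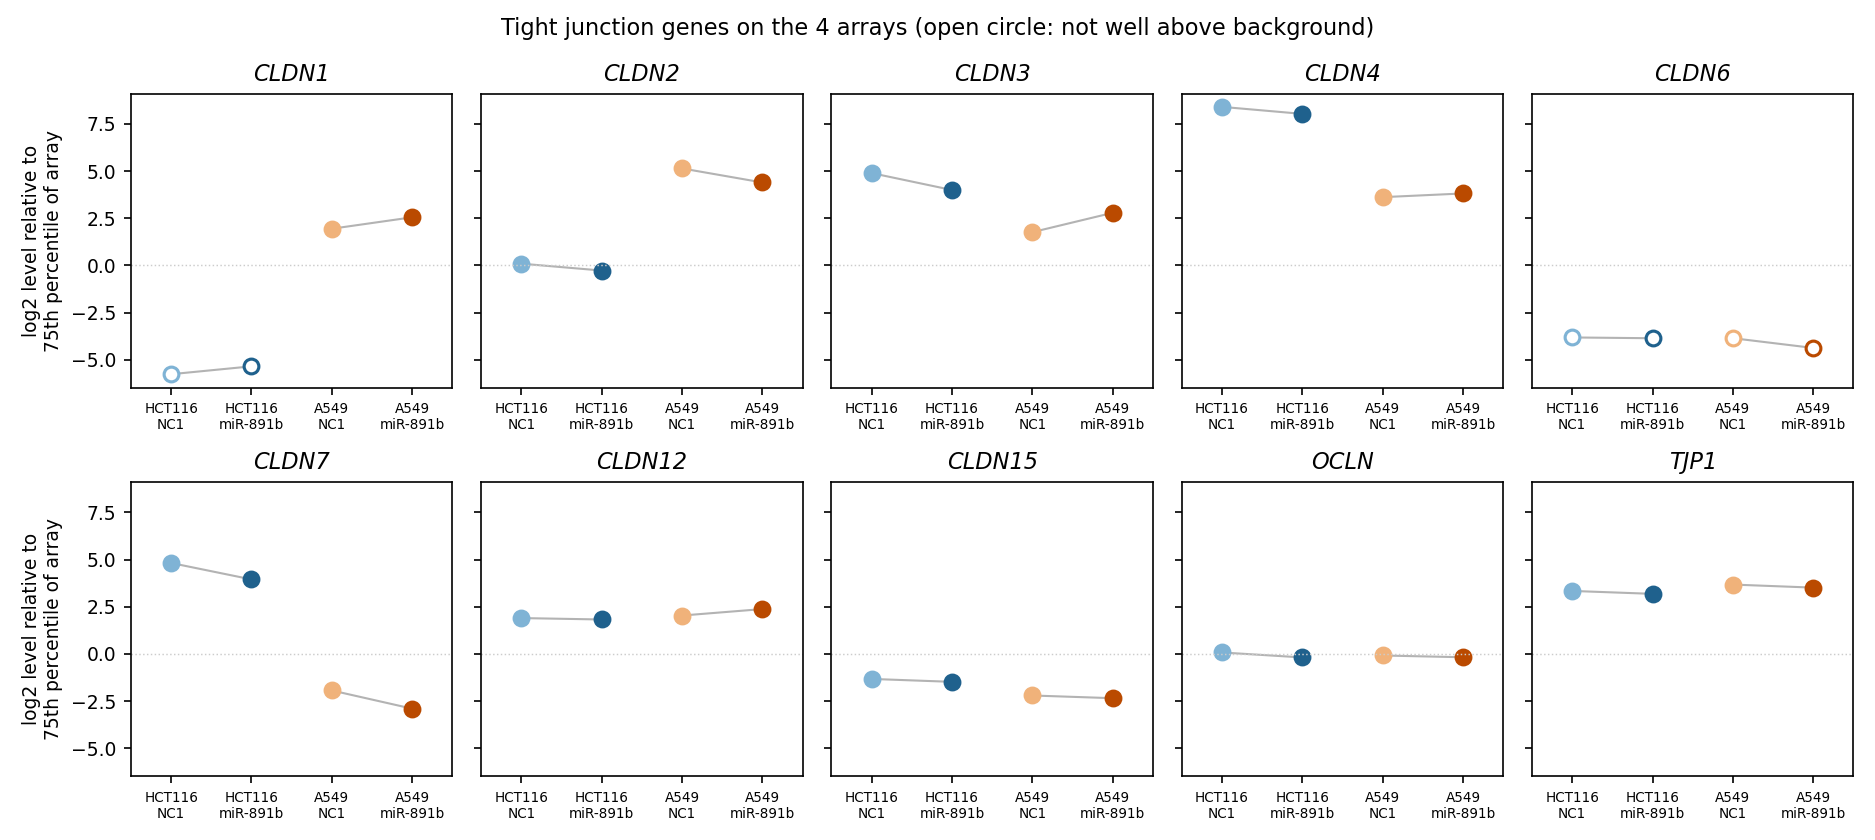
Each panel plots 1 gene, with the log2 level relative to the array's 75th percentile on the y axis and the 4 arrays on the x axis; filled circles are spots well above background, open circles are not, and grey lines join the arrays of a line. CLDN3, CLDN4 and CLDN7 lie lower on both A549 arrays than on both HCT116 arrays, CLDN1 and CLDN2 lie higher, and CLDN12, CLDN15, OCLN and TJP1 differ by less than 1.

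The lines differed in the levels of 5 claudins. On the NC1 arrays CLDN7, CLDN4 and CLDN3 were 108-fold, 27.6-fold and 8.75-fold lower in A549 than in HCT116, CLDN2 was 33.0-fold higher, and CLDN1 was at least 45.0-fold higher. CLDN15, OCLN and TJP1 differed by less than 2-fold, as did CLDN12 on its brighter probe. Of the 8 genes well above background on both NC1 arrays, 3 were lower in A549 by 2-fold or more and 1 was higher, where 27.3% of 19218 measured genes differed by at least 2-fold (16.2% lower, 11.1% higher). The median difference of these 8 genes was -0.52 on the log2 scale, against -0.10 over all measured genes. On the miR-891b arrays the same 3 genes were lower and CLDN2 higher, where 32.1% of 18576 genes passed 2-fold (20.7% lower, 11.4% higher).

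CLDN3, CLDN4 and CLDN7 are claudins of tight, ion-restricting epithelia, and CLDN7 also binds the adhesion molecule EpCAM. The CLDN7 probe crosses a splice junction, since its 60 bases span 165 bases of the genome (hg19, chr17:7163822-7163986, minus strand), and is shown because the widest line difference among these genes measured on all arrays rests on it:
CLDN7 probe: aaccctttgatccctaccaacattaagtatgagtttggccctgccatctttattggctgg
In HCT116 its signal was 1549 ± 155 with NC1 and 880.3 ± 88.0 with miR-891b, and in A549 it was 19.6 ± 2.28 with NC1 and 9.95 ± 1.53 with miR-891b. Both A549 spots lay near the dim end of the measured range. The A549 minus HCT116 difference in log2 level was -6.75 on the NC1 arrays and -6.85 on the miR-891b arrays. With another background correction (normexp), which pulls in dim values, the same differences were -4.48 and -3.85.

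CLDN4 gave signals of 18565 ± 1856 and 14902.5 ± 1490.3 on the HCT116 NC1 and miR-891b arrays and 918 ± 91.8 and 1044 ± 104 on the corresponding A549 arrays. Its log2 difference between the lines was -4.78 on the NC1 arrays and -4.22 on the miR-891b arrays. A second CLDN4 probe, at hg19 chr7:73244259-73244318, stayed near background throughout, with signals from 1.13 to 5.73, so all CLDN4 values rest on the probe at chr7:73246907-73246966.

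CLDN3 had signals of 1631 ± 163 (NC1) and 909.9 ± 91.0 (miR-891b) in HCT116, and of 254 ± 25.4 (NC1) and 513 ± 51.3 (miR-891b) in A549. Both A549 signals were lower than both HCT116 signals, but the gap was narrower with miR-891b. The log2 difference between the lines was -3.13 on the NC1 arrays and -1.21 on the miR-891b arrays. Its probe (chr7:73183327-73183386, minus strand) lies 63.5 kb from that of CLDN4, the neighbouring claudin gene.

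The promoters of these 3 claudins are shown as the 250 bases before the RefSeq start, 5′ to 3′ on the gene's strand, because the genes were lower in A549 together. Capitals mark GGGCGG on either strand, the GC box bound by SP1-type factors. The windows are chr7:73770271-73770520 (minus strand) for CLDN3, chr7:73830746-73830995 (plus strand) for CLDN4 and chr17:7263214-7263463 (minus strand) for CLDN7, all in GRCh38.p14:
CLDN3: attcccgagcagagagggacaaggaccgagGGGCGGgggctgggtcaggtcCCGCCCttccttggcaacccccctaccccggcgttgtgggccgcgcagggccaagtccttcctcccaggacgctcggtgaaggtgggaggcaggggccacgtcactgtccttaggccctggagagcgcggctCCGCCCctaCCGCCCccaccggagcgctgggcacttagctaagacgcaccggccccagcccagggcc
CLDN4: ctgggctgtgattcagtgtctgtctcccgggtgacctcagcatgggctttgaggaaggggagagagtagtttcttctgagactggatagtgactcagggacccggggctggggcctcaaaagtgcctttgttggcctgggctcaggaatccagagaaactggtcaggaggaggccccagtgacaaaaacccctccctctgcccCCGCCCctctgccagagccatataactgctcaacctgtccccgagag
CLDN7: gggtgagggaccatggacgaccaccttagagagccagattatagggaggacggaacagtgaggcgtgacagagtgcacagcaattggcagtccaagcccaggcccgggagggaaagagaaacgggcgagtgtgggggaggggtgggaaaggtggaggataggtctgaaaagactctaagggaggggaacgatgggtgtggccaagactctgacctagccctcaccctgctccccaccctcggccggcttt
The window of CLDN3 held 4 GC boxes, that of CLDN4 held 1 and that of CLDN7 held 0. Of the 10 genes, all of which had a window, 7 held at least 1, against 42.6% of 35116 promoters of the same length. CAGGTG on either strand, the E-box letters that ZEB and SNAI repressors bind, was in the windows of OCLN and TJP1 and of none of the 8 claudins, against 17.5% of all promoters. These are counts of letters and no measure of binding.

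CLDN1 and CLDN2 went the other way. CLDN2 forms a channel for cations and water, and CLDN1 is a sealing claudin, needed for the water barrier of the skin. CLDN2 signals in HCT116 were 58.6 ± 5.98 with NC1 and 47.3 ± 4.99 with miR-891b, and those in A549 were 2635 ± 264 with NC1 and 1563 ± 156 with miR-891b. The A549 signals stood far above both HCT116 signals, with log2 differences of 5.05 on the NC1 arrays and 4.67 on the miR-891b arrays. CLDN1 signals were 1.01 ± 1.01 and 1.40 ± 1.41 on the HCT116 NC1 and miR-891b arrays, neither well above background, and 288 ± 28.8 and 435 ± 43.5 on the A549 arrays. With the HCT116 array's lowest signal among probes well above background as the bound, CLDN1 was at least 45.0-fold higher in A549 on the NC1 arrays and at least 51.5-fold higher on the miR-891b arrays. Both bounds hold for the main processing only, and the normexp correction gave a smaller difference, as given with the model below. The probes of CLDN1, CLDN2 and CLDN3 each hold AATAAA, the usual polyadenylation signal, as do 7.85% of all gene probes.

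The other genes were close in the lines. CLDN15, a cation-pore claudin of the intestine, had signals of 21.9, 20.5, 16.3 and 14.6, and both A549 values were the lower ones. Its log2 differences were -0.88 and -0.87 on the NC1 and miR-891b arrays. CLDN12, a claudin that lacks the usual tail motif for ZO-1, had signals of 205, 202, 307 and 386 on its brighter probe and differences of 0.13 and 0.55. Its dimmer probe, not well above background in HCT116, was at least 2.29-fold higher in A549 on the NC1 arrays and at least 1.24-fold higher on the miR-891b arrays, and the mean over probes gave an NC1 difference of 0.78. TJP1 signals were 555, 518, 955 and 848 in that order, and its differences were 0.34 and 0.33. OCLN signals were 58.0, 50.1, 70.6 and 65.8, with differences of -0.16 and 0.01.

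The line difference was tested in an additive limma model of all 4 arrays, with terms for the line and the transfection and 1 residual degree of freedom. Its error combines how far a gene's line difference varied between the NC1 and the miR-891b arrays with a value shared by all genes. For TJP1, whose differences were 0.34 and 0.33, the SE was still 0.23. Such an error does not measure the spread between cultures. By this fit, 7249 of 22712 genes (31.9%) passed for the line term at a Benjamini-Hochberg adjusted p of 0.05, 16.4% lower and 15.5% higher in A549. Of the 9 tight junction genes that could be fitted, 3 passed with lower levels in A549 and 2 with higher levels. CLDN1 entered the fit only through the A549 arrays, where it is high, and without it 4 of 8 passed. Without adjustment, CLDN15 also had p under 0.05, as did 46.2% of all genes. In log2 units ± SE, the limma estimate was -6.80 ± 0.23 for CLDN7 (adjusted p = 0.000764), -4.50 ± 0.27 for CLDN4 (adjusted p = 0.00159) and 4.86 ± 0.25 for CLDN2 (adjusted p = 0.00122). For CLDN1 the limma fit gave 7.80 (adjusted p = 0.000753), and 2.84 with normexp and quantile normalization. Both estimates rest on HCT116 spots that were not well above background. The CLDN3 estimate was -2.17 ± 0.52 with an adjusted p of 0.0438, and under 4 of 7 other settings its limma adjusted p was above 0.05 (range over the 7 settings 0.0048 to 0.109). CLDN15 (-0.87 ± 0.23, limma adjusted p = 0.0542), CLDN12 (0.34 ± 0.25, 0.346), TJP1 (0.33 ± 0.23, 0.320) and OCLN (-0.08 ± 0.23, 0.825) did not pass.

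**Figure D2:**
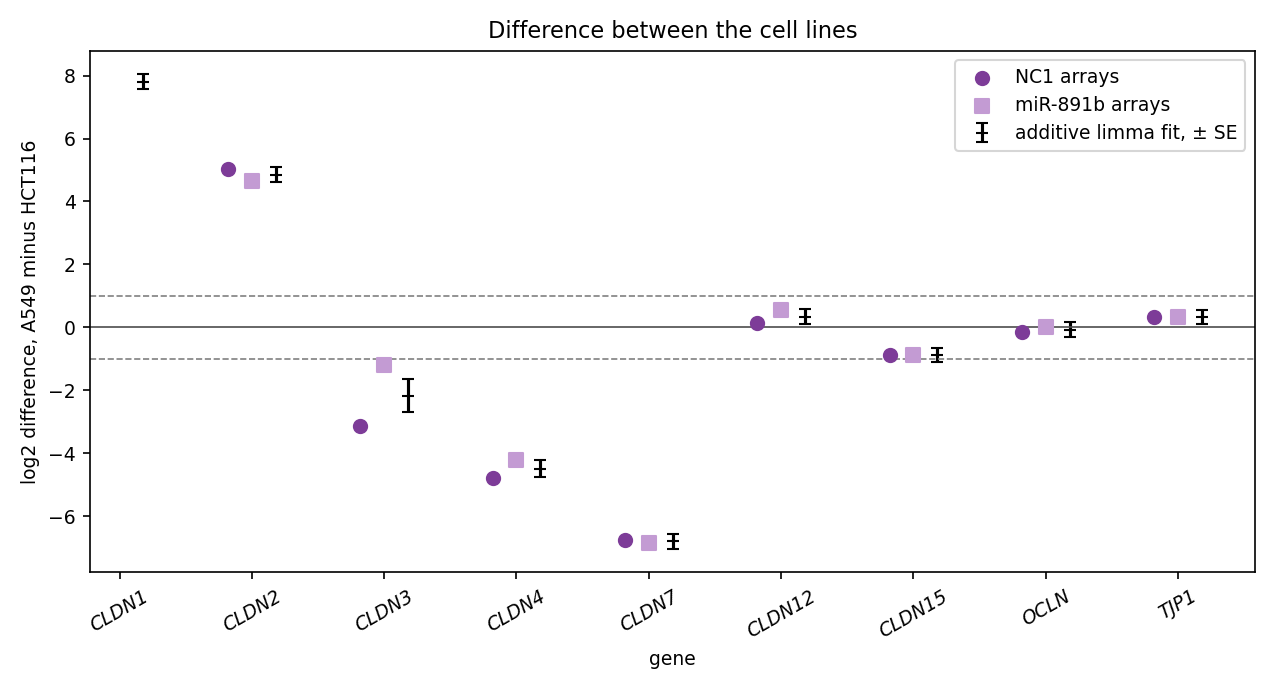
The y axis is the A549 minus HCT116 difference in log2 level for each gene on the x axis, on the NC1 arrays (circles), on the miR-891b arrays (squares) and from the additive limma fit (bars, ± SE). Dashed lines mark 2-fold; CLDN3 is the gene whose 2 array differences lie farthest apart (-3.13 and -1.21), and CLDN1 has a fitted value only, which rests on HCT116 spots that were not well above background.

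The next comparison asked how these genes changed with miR-891b in each line. In HCT116 all 8 measured genes were lower on the miR-891b array than on the NC1 array, on the probe used for each. The median change of all 19105 measured genes was also below 0, at -0.04, so a fall was the commoner sign. CLDN3 and CLDN7 were lower by 0.90 and 0.87 on the log2 scale, the most, and none reached 2-fold. CLDN12 changed least, by -0.08, and 45.2% of all measured genes had a lower change than that. The mean over the CLDN12 probes was 0.23. In A549 CLDN3 was 2.04-fold higher with miR-891b, CLDN7 was 1.95-fold lower, CLDN2 1.67-fold lower and CLDN1 1.52-fold higher. The share of all measured genes past 2-fold was 2% of 19105 in HCT116 (1.16% higher, 0.843% lower) and 9.58% of 21336 in A549 (4.01% higher, 5.57% lower), against 0 of 8 and 1 of 9 tight junction genes. The median change of these genes was -0.31 in HCT116, where that of all measured genes was -0.04, and -0.09 in A549, where it was -0.06. With 1 array per group no test of a change within a line can be made.

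CLDN7 was lower in both lines, with log2 changes of -0.87 in HCT116 and -0.96 in A549. In HCT116 its signal fell from 1549 to 880.3, and 1.52% of measured genes had a lower change. In A549 the change rests on dim spots (19.6 and 9.95), where 13 probes printed at 5 or more spots with a signal under 64 had a median SD of 0.19 for the log2 difference. The A549 change was -0.15 after the normexp correction. Across the lines the additive limma fit gave -0.92 ± 0.23 for miR-891b minus NC1, with an unadjusted p of 0.0154 and an adjusted p of 0.793.

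CLDN3 changed in opposite directions, by -0.90 in HCT116 and 1.03 in A549. Under the 7 other settings the HCT116 change ran from -0.90 to -0.79 and the A549 change from 1.01 to 1.13. The median spot-level SD of such a difference was 0.061 in HCT116 (276 probes) and 0.071 in A549 (287 probes), a figure for spots within an array that leaves out differences between cultures, labelling reactions and arrays. The spot's surroundings on the HCT116 miR-891b array held stray signal: 9.84% of the surrounding spots whose probes were otherwise dim were bright there, just under the 10% at which an area was counted as disturbed. The part of this in the HCT116 value was not tested.

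CLDN4 followed the signs of CLDN3 with smaller sizes, -0.37 in HCT116 and 0.20 in A549. CLDN2 was lower in both lines, by -0.36 and -0.74. CLDN1 could be followed in A549 only, where it changed by 0.61. None of these changes passed 2-fold.

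OCLN was measured by a pair of probes, of which one crosses a splice junction and spans 2044 bases of the genome (hg19, chr5:68847386-68849429, plus strand):
OCLN junction probe: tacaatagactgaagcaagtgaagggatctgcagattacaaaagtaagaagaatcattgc
This probe read 44.1 ± 4.58 and 29.3 ± 3.36 on the NC1 and miR-891b arrays of HCT116 and 66.4 ± 6.75 and 54.9 ± 5.62 on those of A549, which gives changes of -0.65 in HCT116 and -0.26 in A549. The other OCLN probe, at chr5:68849515-68849574, changed by -0.26 and -0.09. The probes agreed in sign in both lines and differed in size, and their mean changed by -0.46 and -0.18. TJP1 changed by -0.15 in HCT116 and -0.16 in A549, and CLDN15 by -0.15 and -0.14.

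The 2 probes of CLDN12 disagreed. The brighter one, at chr7:90044941-90045000, changed by -0.08 in HCT116 and 0.34 in A549. The dimmer one, at chr7:90042478-90042537, is shown because it gave the opposite sign in A549:
CLDN12 dimmer probe: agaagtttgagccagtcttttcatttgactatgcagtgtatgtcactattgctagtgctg
Its signals were 3.97 ± 1.28 and 5.99 ± 1.74 on the HCT116 arrays, not well above background, and in A549 14.6 ± 1.91 with NC1 against 10.5 ± 1.58 with miR-891b, so that it changed by -0.47. No direction is therefore given for CLDN12 in A549.

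**Figure D3:**
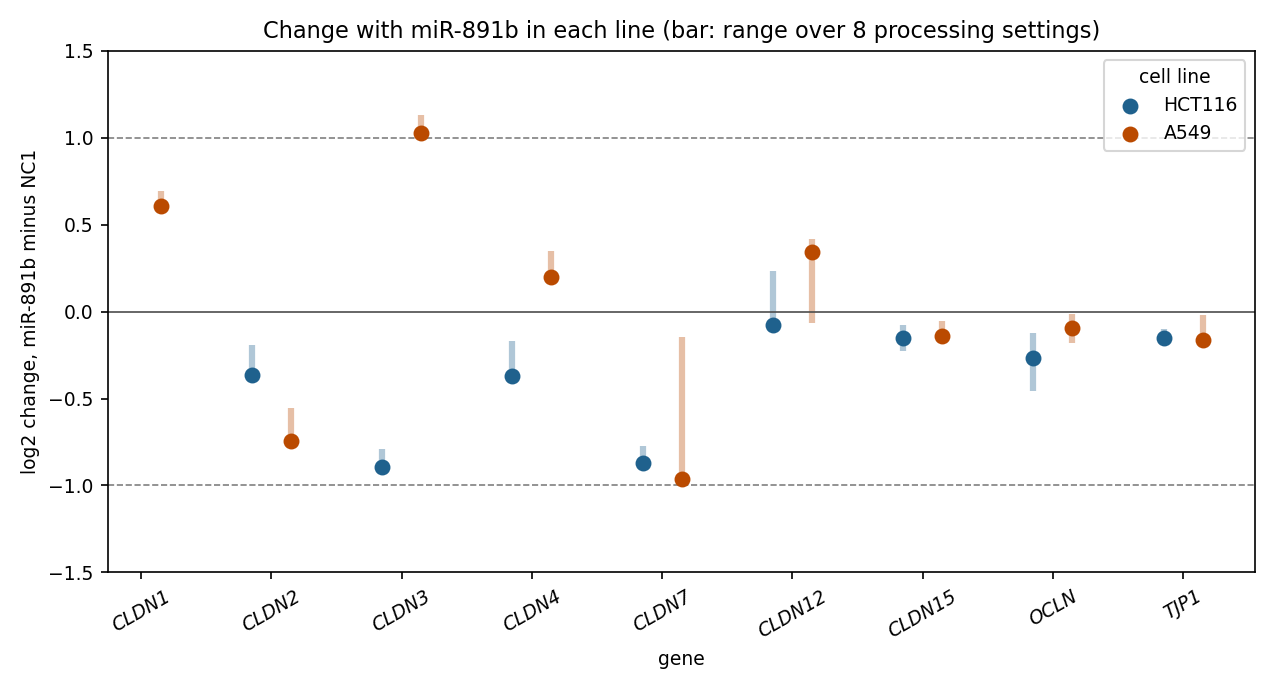
The y axis is the log2 change, miR-891b minus NC1, of each gene on the x axis in HCT116 (blue) and A549 (orange); circles are the values of 1 array pair and pale bars the range over 8 processing settings. Dashed lines mark 2-fold, which CLDN3 in A549 passes at 1.03, and the long bar of CLDN7 in A549 reaches from -0.97 to -0.15.

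Of the 8 genes measured in both lines, 3 had changes of opposite sign on the probe used (CLDN3, CLDN4 and CLDN12), a share of 37.5% against 45.1% of 18064 measured genes. For CLDN12 the probes disagree, as given above, so its signs are those of the brighter probe only. The change in A549 minus the change in HCT116 was 1.92 for CLDN3, and 1 of the 8 genes and 11.2% of all genes had a gap of 1 or more. In the transfection term of the additive limma model 0 of 22712 genes (0%), and so 0 of these 9, had an adjusted p under 0.05. Without adjustment, 1214 genes (5.35%) had p under 0.05, and CLDN7 was the one tight junction gene among them.

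Other genes of cell junctions, from lists of 84 genes of which 83 were on the array, were set beside these 10. Of the 15 other claudins on the array, 8 were not well above background on any array, among them CLDN5 of endothelium and CLDN18 of lung and stomach, 5 were on some arrays, and CLDN19 and CLDN23 were on all 4. CLDN23 changed by -1.14 in HCT116 and 0.62 in A549, the same signs as CLDN3 and CLDN4, and CLDN19 by -0.05 and -0.03. Signs were opposite in 45.1% of all genes measured in both lines. Of the other tight junction membrane proteins, none of 8 measured in HCT116 and none of 7 in A549 passed 2-fold with miR-891b, where 2% and 9.58% of all measured genes did. In the limma line term, 3 of 8 such proteins that could be fitted passed as lower in A549 and 1 as higher. Of 6 other claudins fitted, 0 passed as lower and 2 as higher. The shares of all genes were 16.4% lower and 15.5% higher. In both lists some genes that passed entered the fit through 1 line only. Among those lower, LSR, which recruits tricellulin to the corners where 3 cells meet, differed by -3.56 on the NC1 arrays (limma line term -3.56 ± 0.23, adjusted p = 0.00187). CRB3, an apical polarity protein, differed by -1.24 (limma adjusted p = 0.0229).

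Among 22 scaffold and polarity genes, cingulin (CGN), which links ZO-1 to the cytoskeleton, changed by -0.60 in HCT116 and -1.04 in A549 and was the only one past 2-fold with miR-891b. For the line term 9 of the 22 passed as lower in A549 and 4 as higher by the limma fit, against 16.4% and 15.5% of all genes. AMOT, MAGI2 and MPDZ are among these, and each entered the fit through 1 line only, where it is high. PARD3, a polarity scaffold, was higher by 2.34 on the NC1 arrays and PATJ by 1.56. The scaffold MPDZ, not well above background in HCT116, was at least 78.6-fold higher in A549. Around the MPDZ spot, 29.6% of spots that should be dim were bright on the miR-891b array of A549, and 4.32% on its NC1 array.

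Of 16 genes of adherens junctions and desmosomes, α-catenin (CTNNA1) changed by -1.06 in A549 and by -0.40 in HCT116. The desmosomal cadherin DSC2 changed by 1.90 in A549. Around this probe 17.8% of otherwise dim spots were bright on the HCT116 miR-891b array, but 2.41% and 4.14% on the A549 arrays. Another DSC2 probe, outside areas of stray signal on every array, changed by 0.69 in A549. NECTIN4, an adhesion molecule, was at least 2.48-fold lower in A549 with miR-891b, where it was no longer well above background. E-cadherin (CDH1), the main epithelial adhesion protein, changed by -0.79 in HCT116 and -0.78 in A549, and differed between them by -0.24 on the NC1 arrays. Around its spot on the A549 miR-891b array 12.4% of otherwise dim spots were bright, above the 10% limit.

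The genes that act with claudins or on them differed most between the lines. Of 17 that could be fitted, 13 passed as lower in A549 and 3 as higher in the limma line term, with 31.9% called among all genes. These include genes such as GRHL2 that entered the fit through 1 line only. On the NC1 arrays SPINT1, an inhibitor of membrane proteases that cut EpCAM and claudin-7, was lower by a difference of -7.29, the epithelial splicing regulator ESRP2 by -6.11, the intestinal factor CDX2 by -5.23 and EPCAM by -4.92. GRHL2, a transcription factor known to act on claudin genes, was not well above background in A549 and was at least 27.3-fold lower. ZEB1, a repressor of epithelial genes, was higher in A549 by 3.36, and TWIST1, from the same list, by 1.42. SNAI1 was lower in A549 by a difference of -2.69, and ZEB2 was at least 3.13-fold lower. SNAI2 was not well above background on either NC1 array. With miR-891b, ZEB1 changed by 1.19 and ZEB2 by 2.23 in HCT116. ZEB1 changed by -0.23 in A549, and ZEB2 was not well above background there. A mean over the ZEB2 probes gave 0.68 in HCT116.

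**Figure D4:**
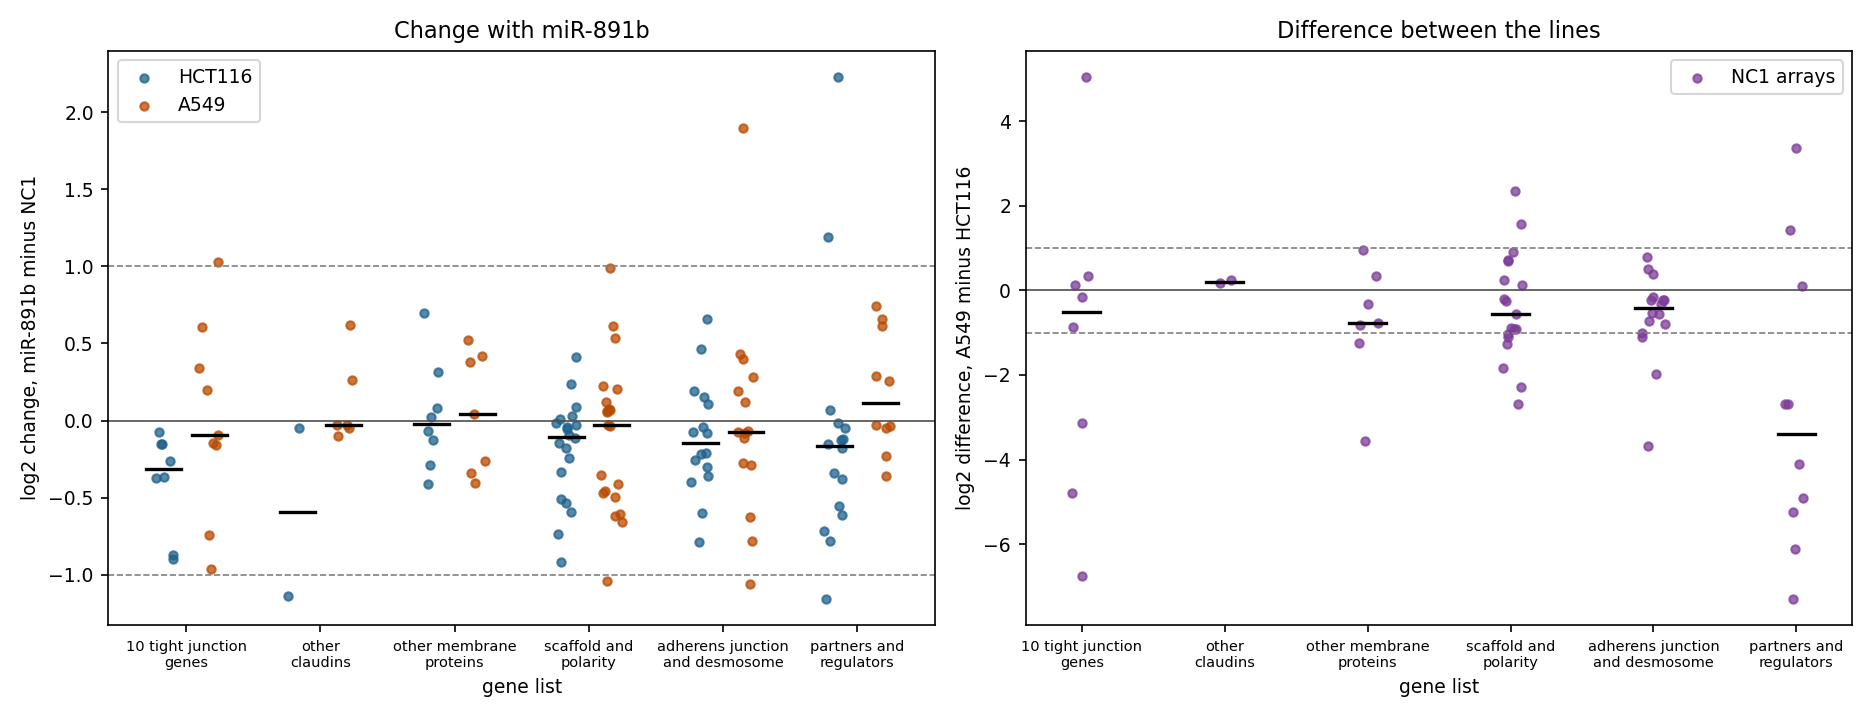
Each point is a gene measured on both arrays compared, grouped by list on the x axis, and black lines are list medians. The left panel plots the log2 change with miR-891b in HCT116 (blue) and A549 (orange), and the right panel the A549 minus HCT116 difference on the NC1 arrays; the partners and regulators list has the lowest median there, at -3.40.

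The genes whose pattern over the 4 arrays was nearest to CLDN7, by root mean square distance after centring each gene, were LAD1 at 0.12, COL9A3 at 0.24 and TMSB15A at 0.26, out of 18064 genes that every array measured. LAD1 levels were 5.42 and 4.90 on the HCT116 NC1 and miR-891b arrays and -1.17 and -2.15 on the A549 arrays.

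Marker genes were used to check the labels. The 4 A549 markers (AKR1B10, AKR1C1, ALDH1A1 and ALDH3A1) had a summed level, relative to the 75th percentile, of 2269 and 1908 on the A549 arrays against 0.72 and 4.94 on HCT116 NC1 and HCT116 miR-891b. On the latter AKR1B10 had changed by 4.47, while ALDH1A1 was not well above background on either HCT116 array. Of the HCT116 markers, CDX2 and EPCAM were high in HCT116, but VIL1 and CDH17 were not well above background there and were at least 67.5-fold and 13.4-fold higher in A549 on the NC1 arrays. All 4 epithelial markers (KRT8, KRT18, KRT19 and CDH1) were well above background on every array. Their summed level was 1832 and 1795 in HCT116 and went from 1443 to 813 in A549 with miR-891b, with KRT18 at -1.14. Its part in the claudin changes was not tested. Of 6 fibroblast markers 2 or 3 were well above background per array, with a summed level of 2.16 to 10.4, and COL1A2, COL3A1 and DCN were on none. The endothelial and leukocyte lists each summed to 0.671 or less.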

How the data were processed

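Total RNA was labelled with Cy3 and hybridised to Agilent 1-colour arrays, and samples were grouped by their titles. The deposited scanner files give each spot's intensity, linear and not log-transformed, made with Agilent Feature Extraction 11.5.1.1 per the submitters' processing notes, with background subtraction and spatial detrending within each array and hg19 probe coordinates per the file headers. The table of the authors' values holds log2 values. The authors do not state their making in the sources used here, but they differed from the main values below by at most 0.0069 in the median of an array and 0.11 for any probe, with column medians from -3.80 to -3.60.

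Outlier spots were dropped, log2 processed signals were averaged per probe, and each array's 75th percentile over gene probes was subtracted. A gene took its probe with the highest mean, and was measured in a comparison where both arrays had that probe well above background (in the model, on at least 2 of 4). Calls were made at 2-fold. The additive model was fitted to all genes with limma 3.58.1 in R 4.3.3, with Benjamini-Hochberg adjustment, and was tested on simulated data. Other steps used Python 3.11.15, numpy 2.4.6, pandas 2.3.3 and scipy 1.17.1. An area was counted as disturbed where at least 10% of spots within 10 rows and 10 columns, otherwise dim, were bright. A lower bound on a fold sets the brighter array against the dimmer array's lowest signal among probes well above background, or the dim probe's own if higher. Precision is limited by having 4 arrays in all.

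The members and lists were chosen with earlier results of these data known. All 10 members were named, and of the junction lists those past 2-fold with miR-891b and the 3 lowest and 3 highest line differences. Some were chosen after their values were seen (CDH1, EPCAM, LSR, CRB3, MPDZ, MAGI2, AMOT, GRHL2, SNAI1, SNAI2, TWIST1, CLDN5, CLDN18 and CLDN19). Claudins whose calls lie in disturbed areas are in the closing section, and 1 gene that the rule names is not reported here. The 3 highest line differences belonged to ZEB1, PARD3 and PATJ. Alternatives were quantile normalization, median scaling, normexp (offset 50) with quantile normalization, the authors' values, no filter on dim probes, the mean over probes, leaving out disturbed areas (8635 of 58201 probes), and calls at 1.5-fold and 3-fold. Probe coordinates were kept on hg19, and RefSeq sequences on GRCh38.p14. Exon and UTR annotation on hg19 was not used here.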

Additional observations from a re-analysis of the deposited data

Results flagged for a closer look

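Of the 8 genes measured in both lines, 3 had changes of opposite sign with miR-891b (37.5%, against 45.1% of all measured genes), and for none was the difference tested, since each line has 1 array per group. The change in A549 exceeded that in HCT116 by 1.92 on the log2 scale for CLDN3 (-0.90 in HCT116, 1.03 in A549). For CLDN4 the gap was 0.57 (-0.37 and 0.20). For CLDN12 it was 0.42 (-0.08 and 0.34), for the brighter probe only: a second probe had the opposite sign in A549, and the mean over probes gave 0.23 in HCT116 and -0.06 in A549, so no direction is given for it.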

How the results depend on the processing

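The counts, medians and differences of the 10 genes, and the named junction genes measured on both arrays, were recomputed under 7 other settings. Values given as lower bounds were not, and CDH1 and ESRP2 have no value without disturbed areas. Of 231 member values, 228 kept their direction and their side of 2-fold. Much of this was given by the settings themselves. Leaving out disturbed areas and dropping the filter left each member value as it was, and the mean over probes moved only CLDN12 and OCLN. The authors' values nearly repeat the main ones, and median scaling shifts all genes of an array alike. The exceptions were the CLDN3 line difference on the miR-891b arrays (-0.95 with normexp and quantile normalization) and CLDN12 with the mean over probes, at 0.23 in HCT116 and -0.06 in A549. No called value reversed. The count past 2-fold stayed at 0 in HCT116 and 1 in A549, with CLDN3 the gene, under all 7. At 1.5-fold it was 2 in HCT116 (CLDN3 and CLDN7) and 4 in A549 (CLDN1, CLDN2, CLDN3 and CLDN7), and at 3-fold it was 0 in A549. The share of all genes past 2-fold was 0.204% in HCT116 and 3.58% in A549 with normexp, and 9.75% and 13.9% with no filter on dim probes. The median change over these genes in HCT116 was -0.25 with quantile normalization, -0.16 with normexp and quantile normalization and -0.21 with no filter, where the median of all genes was 0.20. In A549 it was -0.017 with quantile normalization and -0.011 with normexp and quantile normalization. The line term kept CLDN2, CLDN4 and CLDN7 under all 7 settings. It kept CLDN1 too, but with the filter that gene enters the fit only through the A549 arrays, where it is high. CLDN3 was lost with quantile normalization (limma adjusted p = 0.0553), median scaling (0.0508), the authors' values (0.0573) and normexp with quantile normalization (0.109). No paired analysis was possible because each group holds 1 array and no replicate number pairs arrays across groups; the cell line is already a term of the model. No replicate could be left out. Among the other junction genes, normexp with quantile normalization put CLDN23 (-0.52), ZEB1 (0.68) and ZEB2 (0.71) below 2-fold in HCT116. In A549 it did so for CGN (-0.79), CTNNA1 (-0.80) and DSC2 (0.69). Median scaling also put CGN (-0.978) and CTNNA1 (-0.997) below 2-fold in A549, and quantile normalization CTNNA1 (-0.85). ZEB2 fell below it as a mean over probes (0.68 in HCT116), and DSC2 without disturbed areas (0.69 in A549). The PATJ line difference was 0.41 as a mean over probes. Signal over background limits CLDN6, CLDN1 in HCT116 and CLDN7 in A549.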

Other observations

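A pair of claudins outside the 10 genes, not well above background on HCT116 NC1, were so on the HCT116 miR-891b array. CLDN9 was at least 14.4-fold and CLDN10 at least 6.35-fold higher there than on HCT116 NC1. Around their spots 14.1% and 18.1% of otherwise dim spots were bright on that array, so both areas were disturbed by stray signal. The dim CLDN4 probe lay in such an area too (14.4%) and was not well above background.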
